A study of Mus musculus with 6 samples.

Results

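The genes described here encode the mTOR kinase complexes and the proteins that switch them on and off: Mtor, Mlst8, Deptor, Rptor, Rictor, Akt1s1, Tsc1, Tsc2, Rheb and Rps6kb1. They were chosen by gene symbol, as rows of the authors' table that carry a single symbol, and each gene was read from the brightest such row. Of the 10 genes, 9 were measured this way, among 21154 genes with a row of their own. Akt1s1 appears only on a row shared with another gene and was not analysed here. Each of the 9 had exactly 1 row, called a transcript cluster, the array's gene-level set of probes.

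The cells were 3T3-L1, a mouse fibroblast-like line that becomes fat-storing adipocytes after a hormone mixture. In the Tsuru group (3 arrays), cultures past confluence were induced with IBMX, insulin and dexamethasone in the presence of an extract of Tsuruazuki, changed to insulin medium at day 3 and collected at day 9. The control group (3 arrays) had no extract. The treatment protocol describes this control as induced in the same way, whereas the sample titles only say that the cells were maintained in medium. The protocol names dilutions of 1/1000 and 1/100 of a stock of 100 mg/ml without saying which was arrayed. Both groups are 1 cell line in 10% serum, and nothing in the labels says that the 3 samples of a group were separate cultures, so a p-value here reflects the scatter among arrays that may be technical repeats.

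mTOR is a kinase that couples nutrients and insulin to growth. With Raptor, the product of Rptor, it forms complex 1, which promotes translation and lipid synthesis and holds back autophagy. With Rictor it forms complex 2, which phosphorylates Akt. Tsc1 and Tsc2 form a complex that turns off the small GTPase Rheb, the direct activator of complex 1, and insulin lifts that brake through Akt. In 3T3-L1 cells complex 1 is needed for fat cell formation, which rapamycin blocks.

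The promoters of Mtor, Rheb and Rptor are shown because these 3 have the largest differences among the 8 genes with an entry in RefSeq's promoter table (Deptor has none). Each runs from 250 bases before to 50 after the annotated start, 5′ to 3′, in build GRCm38.p6. The windows are chr4:148448332-148448631 on the plus strand for Mtor, chr5:24842312-24842611 on the minus strand for Rheb and chr11:119602655-119602954 on the plus strand for Rptor. Capitals mark a CCAAT box, spelled as in its name, a GC box with the letters GGGCGG, or an E-box with the letters CACGTG, on either strand.
Mtor: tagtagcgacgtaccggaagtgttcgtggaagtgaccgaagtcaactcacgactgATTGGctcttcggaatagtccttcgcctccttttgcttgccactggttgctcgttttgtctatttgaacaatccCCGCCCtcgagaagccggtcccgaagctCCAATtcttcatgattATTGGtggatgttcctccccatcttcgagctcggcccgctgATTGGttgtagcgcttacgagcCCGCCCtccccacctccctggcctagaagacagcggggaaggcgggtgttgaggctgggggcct
Rheb: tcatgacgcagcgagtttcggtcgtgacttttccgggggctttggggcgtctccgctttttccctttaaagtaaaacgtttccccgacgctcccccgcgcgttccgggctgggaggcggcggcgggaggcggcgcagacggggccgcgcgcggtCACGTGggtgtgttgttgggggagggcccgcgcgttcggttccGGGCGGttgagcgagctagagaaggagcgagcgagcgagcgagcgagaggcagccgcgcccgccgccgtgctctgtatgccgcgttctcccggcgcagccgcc
Rptor: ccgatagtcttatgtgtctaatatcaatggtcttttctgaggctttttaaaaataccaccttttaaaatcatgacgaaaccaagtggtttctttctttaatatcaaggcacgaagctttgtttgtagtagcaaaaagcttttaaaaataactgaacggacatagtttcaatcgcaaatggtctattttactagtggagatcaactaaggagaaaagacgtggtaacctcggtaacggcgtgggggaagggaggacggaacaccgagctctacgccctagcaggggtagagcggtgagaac
The Mtor window held 4 CCAAT and 2 GGGCGG matches, the Rheb window 1 CACGTG and 1 GGGCGG match, and the Rptor window no match to these motifs. Of the 8 windows, 2 held CCAAT, 3 GGGCGG and 1 CACGTG, against 37.4%, 35.7% and 7.15% of 32851 promoter windows of the same length. The Mtor and Rptor windows were 56.7% and 41.7% G or C and the Rheb window 70.0%, where the median of all windows was 52.7%. A match is a description of the letters and not a binding site.

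The arrays were of similar quality, with control replicate 1 apart from the rest. Array medians over 22206 transcript clusters lay between 5.43 and 5.59 on the log2 scale, and the median standard error of a log2 difference was 0.195, which the 6 arrays limit. The mean correlation of control replicate 1 with the other arrays was 0.987, against 0.991 to 0.992 for the others. Its interferon response genes were high as well: the list's median deviation from the gene means was -1.25, -0.15 and 0.020 on Tsuru arrays, and 2.61, -1.02 and 0.032 on control arrays, the first of them control replicate 1. Above the 95th percentile of the array's negative control sets on every array were 8 of 12 adipocyte markers and 5 of 7 preadipocyte markers, but 0 of 8 macrophage, 0 of 6 endothelial and 0 of 6 skeletal muscle markers.

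All 9 genes had a higher mean signal with Tsuru than in controls, except that Tsc2 and Rps6kb1 were lower after quantile or cyclic loess normalization. A higher mean was also found for 64.5% of clusters with a mean of log2 6 or more and for 50.6% of all clusters. The 3 genes Mtor, Deptor and Rheb passed the threshold of the series' methods, a fold above 1.1 with an unadjusted p under 0.05, but 0 of the 9 did after quantile normalization, cyclic loess or without the empirical Bayes step. None passed adjustment for all clusters. By limma with p-values adjusted over all clusters (Benjamini-Hochberg), 0 of 22206 clusters had an adjusted p under 0.05, and 0 without the empirical Bayes step, with 2472 at an unadjusted p under 0.05. The methods' threshold was passed upward by 5.75% of all clusters and downward by 5.38%. Brightness matters to that background: among the 9914 clusters with a mean of log2 6 or more, as all 9 genes have, 9.92% passed upward and 3.14% downward. The median log2 difference was 0.29 over the 9 genes, 0.10 over those brighter clusters and 0.0039 over all clusters. With array medians subtracted, 2026 clusters passed upward and 766 downward, in place of 1277 and 1195. The genes were chosen with earlier results of these data known, and these counts were not tested as a set.

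**Figure D1:**
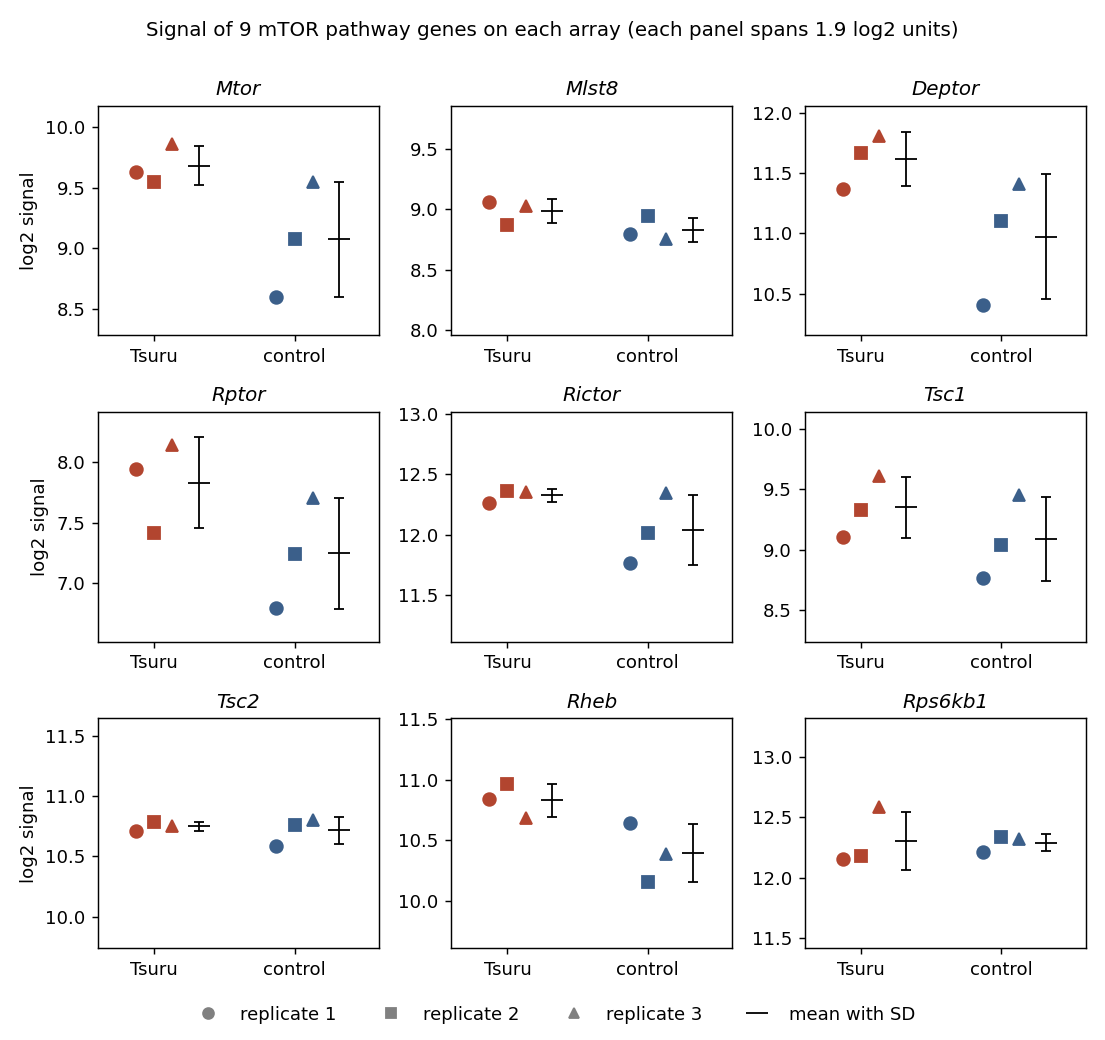
Log2 signal of each of the 9 genes on each array, Tsuru at the left and control at the right of each panel, with marker shapes for replicates and a black bar for the mean with its SD (n = 3). Every panel spans the same height. The groups do not overlap for Mtor and Rheb, and control replicate 1 is the lowest array for 6 genes.

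Mtor encodes the kinase itself. It read 9.63, 9.55 and 9.86 in Tsuru replicates 1 to 3 on the log2 scale, against 8.59, 9.08 and 9.55 in control replicates 1 to 3. The 3 Tsuru values all lay above the 3 control values, but the lowest Tsuru and the highest control reading were only 0.00039 apart. Such a separation upward was found for 9.06% of all clusters and for 14.8% of those at log2 6 or more, and the reverse for 7.75% of all clusters. The log2 difference was 0.61 ± 0.24 (SE), a 1.53-fold higher signal (95% confidence interval 1.05 to 2.21; limma, unadjusted p = 0.0294, adjusted p = 0.411).

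Mlst8 encodes the small WD-repeat subunit that both complexes share. Its log2 signals were 9.06, 8.87 and 9.03 with Tsuru and 8.79, 8.95 and 8.76 in controls. The ranges overlapped, with Tsuru replicate 2 below control replicate 2. The difference was 0.16 ± 0.16 (SE), with an interval from -0.20 to 0.51 (limma, unadjusted p = 0.353, adjusted p = 0.736), and was 0.015 after quantile normalization and 0.023 after cyclic loess.

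Deptor encodes an inhibitor that binds the kinase in both complexes and has been linked to fat cell formation in mice. Log2 signals were 11.37, 11.66 and 11.80 with Tsuru, against 10.41, 11.11 and 11.41 in controls. Tsuru replicate 1 lay just under control replicate 3, so the groups overlapped by that pair. Deptor had the widest difference of the 9 genes, 0.64 ± 0.26 (SE), or 1.56-fold (interval 1.05 to 2.31; limma, unadjusted p = 0.0318, adjusted p = 0.411). The kinase and its bound inhibitor thus both had higher means with Tsuru.

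The subunits that set the complexes apart are Rptor for complex 1 and Rictor for complex 2. Rptor read 7.94, 7.42 and 8.14 with Tsuru and 6.79, 7.24 and 7.71 in controls on the log2 scale. Tsuru replicate 2 lay below control replicate 3, and the other Tsuru arrays were above every control. The difference, 0.59 ± 0.27 (SE), was close in size to that of Mtor, and its interval of -0.0061 to 1.18 included 0 (limma, unadjusted p = 0.0520, adjusted p = 0.452). Rictor read 12.27, 12.36 and 12.36 with Tsuru and 11.77, 12.01 and 12.34 in controls. The Tsuru arrays lay close together, with an SD of 0.054 against 0.29 in controls, and control replicate 3 lay inside their range. The Rictor difference was 0.29 ± 0.19 (SE), with an interval from -0.13 to 0.70 (limma, unadjusted p = 0.153, adjusted p = 0.584). Whether Rptor and Rictor differed from each other in response was not tested.

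Tsc1 and Tsc2 encode the partners of the complex that inactivates Rheb. Tsc1 read 9.11, 9.33 and 9.61 with Tsuru and 8.77, 9.04 and 9.46 in controls on the log2 scale. Control replicate 3 exceeded 2 of the 3 Tsuru arrays, and the difference was 0.26 ± 0.22 (SE), interval -0.22 to 0.75 (limma, adjusted p = 0.674), or 0.12 after quantile normalization and 0.13 after cyclic loess. Tsc2, which carries the GTPase-activating domain, read 10.71, 10.78 and 10.75 with Tsuru and 10.59, 10.76 and 10.80 in controls. All Tsuru readings lay within the control range, and the difference was 0.035 ± 0.16 (SE), interval -0.32 to 0.39 (limma, adjusted p = 0.953). The intervals still allow changes of up to 1.68-fold for Tsc1 and 1.31-fold for Tsc2.

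Rheb encodes the small GTPase that the Tsc complex turns off. Its log2 signals were 10.84, 10.96 and 10.69 with Tsuru, against 10.64, 10.15 and 10.39 in controls. The groups did not overlap, and the gap between the lowest Tsuru and the highest control reading was 0.047. The difference was 0.43 ± 0.18 (SE), or 1.35-fold (interval 1.02 to 1.79; limma, unadjusted p = 0.0393, adjusted p = 0.425). Here control replicate 1 was the highest control, unlike in Mtor, Deptor, Rptor, Rictor, Tsc1 and Tsc2, where it was the lowest of all 6 arrays.

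Rps6kb1 encodes the S6 kinase, a main substrate of complex 1. It read 12.15, 12.18 and 12.58 with Tsuru and 12.21, 12.34 and 12.32 in controls on the log2 scale. Tsuru replicates 1 and 2 were below every control and Tsuru replicate 3 above them. The difference was 0.015 ± 0.18 (SE), interval -0.38 to 0.41 (limma, adjusted p = 0.984), and a change of up to 1.33-fold upward remains within it.

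**Figure D2:**
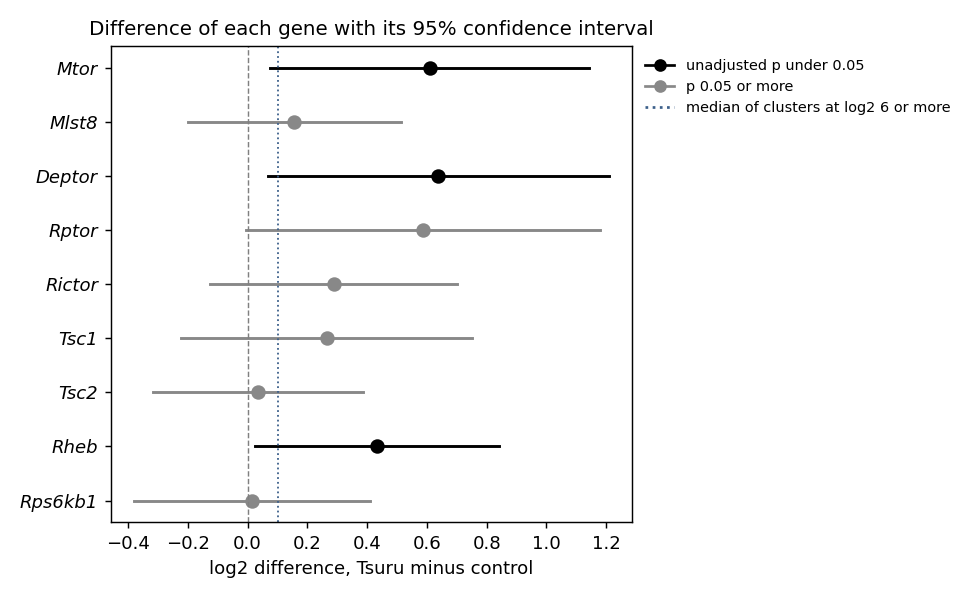
Log2 difference of each gene, Tsuru minus control, with its 95% confidence interval from limma (3 arrays per group). Black genes had an unadjusted p under 0.05, the dashed line marks 0 and the dotted line the median of clusters at log2 6 or more, 0.10. The intervals of Mtor, Deptor and Rheb exclude 0, and that of Rptor begins at -0.0061.

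The signals of 4 genes were not clear of the negative control sets. All 9 exceeded the mean of those sets on every array, but Rptor and Mlst8 lay under their 95th percentile on 6 of 6 arrays, Tsc1 on 4 and Mtor on 2. The others were above it on all arrays.

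The differences of 5 genes depended on whether control replicate 1 or 3 was included, and that of Rheb on control replicates 1 and 2. Without control replicate 1 the log2 difference was 0.37 for Mtor, 0.35 for Deptor, 0.36 for Rptor, 0.15 for Rictor and 0.10 for Tsc1, each smaller by over 1.5 times. Without control replicate 3, in contrast, it was 0.85 for Mtor, 0.86 for Deptor, 0.82 for Rptor, 0.44 for Rictor and 0.45 for Tsc1. Rheb differed by 0.31 without control replicate 2 and by 0.56 without control replicate 1. It passed in 2 of the 6 fits with 1 array left out. Of the 9 genes, 1 passed the methods' threshold without control replicate 1 (Rheb) and 4 without control replicate 3 (Mtor, Deptor, Rptor and Rictor). Leaving out any other array left 1 or 2: Deptor without Tsuru replicate 1, Mtor and Rptor without Tsuru replicate 2, Rheb without Tsuru replicate 3 and Deptor without control replicate 2. Without Tsuru replicate 3 the Tsc1 difference was 0.13. All differences of Mtor, Deptor, Rptor, Rictor, Tsc1, Mlst8 and Rheb stayed positive in the 6 fits. The low readings of Mtor, Deptor, Rptor, Rictor and Tsc1 and the high interferon response genes fell on the same array, control replicate 1. The part of one in the other was not tested.

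**Figure D3:**
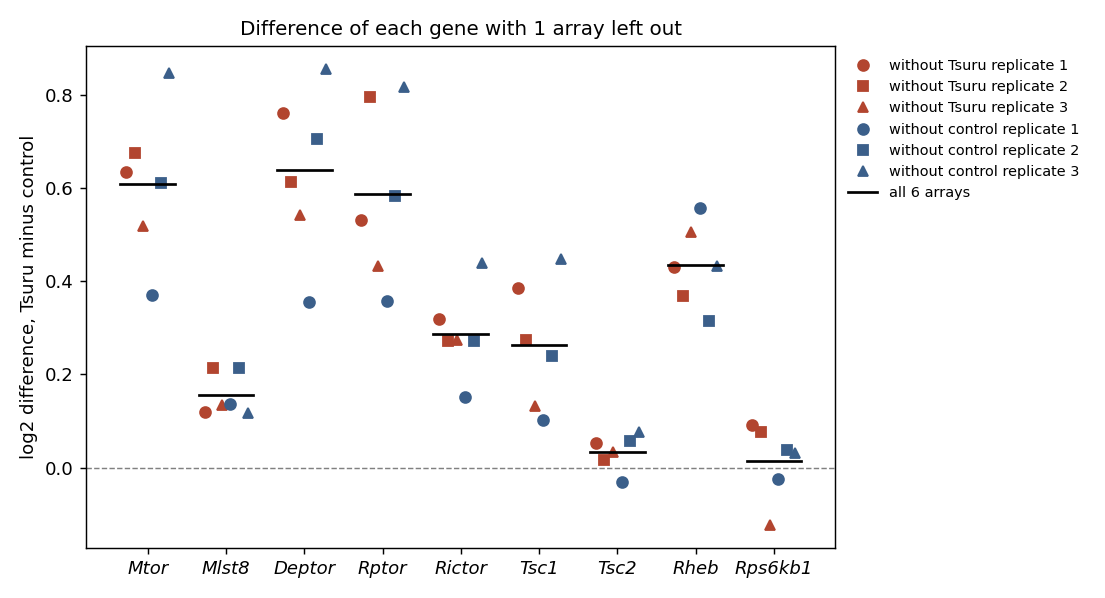
Log2 difference of each gene, Tsuru minus control, with 1 array left out at a time (red for a Tsuru array, blue for a control array, shapes for the replicate) and with all 6 arrays (black lines). Leaving out control replicate 1 gives the smallest difference for Mtor, Deptor, Rptor, Rictor, Tsc1 and Tsc2, and leaving out control replicate 3 the largest for the same genes.

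The authors' deposited table gave 2 of the 9 genes at the methods' threshold. In the authors' deposited table Mtor had a fold change of 1.58, with a p of 0.0155 and an FDR p of 0.340. Deptor had one of 1.49 in the authors' deposited table, with a p of 0.0262 and an FDR p of 0.366. Rheb, at 1.30-fold, missed it in the authors' deposited table with a p of 0.0590, as did Rptor at 1.48-fold with a p of 0.0563. By the values of the authors' deposited table, 6% of clusters passed upward and 5.89% downward. Rps6kb1 was listed in the authors' deposited table at a fold change of -1.1, that is lower with Tsuru, with a p of 0.9988. The arrays gave 0.015 on the log2 scale. The group averages of the authors' deposited table for these 9 genes differed from the array means by -0.025 to 0.30 with Tsuru and by -0.070 to 0.31 in controls.

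The other genes of the pathway came from lists that were also chosen with earlier results known. Of 84 genes in 7 lists, 8 passed upward and 1 downward, which is 9.52% upward, against 9.92% of clusters at log2 6 or more and 5.75% of all clusters. Positive differences were found for 56 of the 84, or 66.7%, against 64.5% of those brighter clusters and 50.6% of all clusters, and their median log2 difference was 0.13. The 84 include dimmer genes too, so neither background matches them exactly. Of the 8 that passed upward, only Pdpk1 and Eif4ebp1 exceeded the 95th percentile of the negative control sets on all 6 arrays. With array medians subtracted 17 of the 84 passed upward, and 5 without the empirical Bayes step or without Tsuru replicate 1.

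Of 9 further subunits and assembly factors, 0 passed by limma at the methods' threshold or at an adjusted p under 0.05, and 6 had positive differences, with a median of 0.12. The smallest p-values belonged to Tbc1d7, the third subunit of the Tsc complex, at a log2 difference of 0.29 ± 0.22 (SE), and to Rps6kb2, which encodes the other S6 kinase, at -0.16 ± 0.16. Prr5, a subunit of complex 2, differed by 0.16 ± 0.18 and Tti1, an assembly factor of mTOR and related kinases, by 0.17 ± 0.20. Without control replicate 1 the difference was 0.053 for Tbc1d7, 0.035 for Prr5 and 0.013 for Tti1, and without control replicate 3 it was 0.45, 0.28 and 0.29 in that order. Tti1 differed by 0.043 without Tsuru replicate 3.

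The lysosomal Rag GTPases, with the Ragulator scaffold and the folliculin complex, bring complex 1 to the lysosome when amino acids are present. Of 13 genes, 1 passed upward, 0 downward, and the median log2 difference was 0.14. The one that passed was Fnip2, a partner of folliculin, at 0.45 ± 0.20 (SE; limma, unadjusted p = 0.0475, adjusted p = 0.443). It passed in 2 of the 6 fits with 1 array left out, without Tsuru replicate 2 and without control replicate 2. Flcn, which encodes folliculin, differed by 0.45 ± 0.30, the Ragulator gene Lamtor2 by 0.36 ± 0.19 and the Rag gene Rraga by 0.30 ± 0.23. Flcn differed by 0.18 without Tsuru replicate 3, 0.20 without control replicate 1 and 0.70 without control replicate 3, and Rraga by 0.15 without Tsuru replicate 2 and 0.55 without Tsuru replicate 3.

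Genes of the GATOR complexes and the amino acid sensors, which control the Rag GTPases, gave 2 passes upward and 0 downward among 17, with a median log2 difference of 0.17. Kptn, a subunit of the KICSTOR complex that holds GATOR1 on the lysosome, read 4.62, 4.69 and 4.64 with Tsuru, against 4.09, 4.04 and 3.96 in controls. All 6 readings lay under the mean of the negative control sets on their array, so Kptn was not measured above background in either group, and its difference of 0.62 ± 0.15 (SE; limma, unadjusted p = 0.00247, adjusted p = 0.342) is given as a value only. Nprl3, a subunit of GATOR1, the complex that turns the Rag GTPases off, read 7.34, 7.23 and 7.33 with Tsuru, against 6.58, 6.80 and 6.93 in controls. The Nprl3 difference of 0.53 ± 0.17 (limma, unadjusted p = 0.00973, adjusted p = 0.352) passed in each of the 6 fits with 1 array left out. All 6 Nprl3 readings lay above the mean of the negative control sets but under their 95th percentile. Depdc5, another GATOR1 gene, differed by 0.42 ± 0.21, or 0.22 without control replicate 1 and 0.63 without control replicate 3.

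Among 16 genes that carry insulin and stress signals to the Tsc complex, 1 passed upward and 1 downward, with a median log2 difference of 0.075. Pdpk1, the kinase that phosphorylates Akt and S6 kinase, read 12.17, 11.70 and 11.68 with Tsuru and 10.37, 10.76 and 11.68 in controls. Control replicate 3 overlapped the Tsuru range, and the difference of 0.91 ± 0.31 (SE; limma, unadjusted p = 0.0145, adjusted p = 0.374) was 0.63 without control replicate 1. Pdpk1 missed the threshold without control replicate 1, control replicate 2 or Tsuru replicate 1. Ddit4l, an inhibitor of complex 1, differed by -0.40 ± 0.16 (limma, unadjusted p = 0.0327, adjusted p = 0.413), with means of 3.76 with Tsuru and 4.16 in controls, both under the background sets. Ddit4l passed in 2 of those 6 fits, without Tsuru replicate 2 and without control replicate 1. Its relative Ddit4 differed by 0.38 ± 0.21, or 0.25 without control replicate 1 and 0.60 without control replicate 3. Irs1, the insulin receptor substrate, differed by 0.36 ± 0.17.

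Translation targets of complex 1 had positive differences for 11 of 12 genes and a median log2 difference of 0.22. Of these, 2 passed upward and 0 downward, and both encode the repressors that bind the cap-binding factor eIF4E until complex 1 phosphorylates them. Eif4ebp1 read 11.39, 11.51 and 11.16 with Tsuru, against 10.56, 10.27 and 10.64 in controls. The groups lay wholly apart, at 0.87 ± 0.18 (SE; limma, unadjusted p = 0.000744, adjusted p = 0.315), and the difference was between 0.75 and 0.96 with any 1 array left out. Eif4ebp2 read 8.74, 8.56 and 9.11 with Tsuru, against 8.22, 8.04 and 8.44 in controls, a difference of 0.57 ± 0.20 (limma, unadjusted p = 0.0164, adjusted p = 0.374) that missed the threshold without Tsuru replicate 3 or control replicate 2. Poldip3, a partner of S6 kinase in mRNA translation, differed by 0.55 ± 0.25 (0.33 without control replicate 1 and 0.83 without control replicate 3) and Larp1, which binds mRNAs of ribosomal proteins, by 0.36 ± 0.19. Poldip3 exceeded the mean of the negative control sets on 4 of 6 arrays.

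Of 9 autophagy and lysosome targets, 1 passed upward and 0 downward, and the median log2 difference was -0.089. Atg101, a subunit of the kinase complex that starts autophagy, differed by 0.59 ± 0.22 (SE; limma, unadjusted p = 0.0234, adjusted p = 0.398), and Ulk1, the kinase of that complex, by 0.55 ± 0.26, or 0.30 without control replicate 1. Ulk1 exceeded the mean of the negative control sets on only 3 of 6 arrays. Atg101 passed with 1 array left out in 2 of 6 fits, without Tsuru replicate 3 and without control replicate 3. Wipi2, which acts in autophagosome formation, differed by 0.31 ± 0.15 and the lysosomal transcription factor gene Tfe3 by 0.32 ± 0.26, or 0.028 without control replicate 1.

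Among 8 substrates and feedback targets, 1 passed upward and 0 downward, with a median log2 difference of 0.045. Foxo3, a transcription factor that Akt excludes from the nucleus, differed by 0.47 ± 0.20 (SE; limma, unadjusted p = 0.0408, adjusted p = 0.430). Its relative Foxo1 differed by 0.40 ± 0.22, or 0.22 without control replicate 3 and 0.61 without control replicate 1, where it passed. Foxo3 passed in 1 of the 6 fits, without control replicate 3, and differed by 0.30 without control replicate 1. Ndrg1, whose product the kinase Sgk1 phosphorylates, differed by 0.39 ± 0.18 with both means under the background sets. The kinase gene Sgk3 differed by -0.19 ± 0.21, which turned to 0.026 without Tsuru replicate 3. All Sgk3 readings lay under the mean of the negative control sets on their array.

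**Figure D4:**
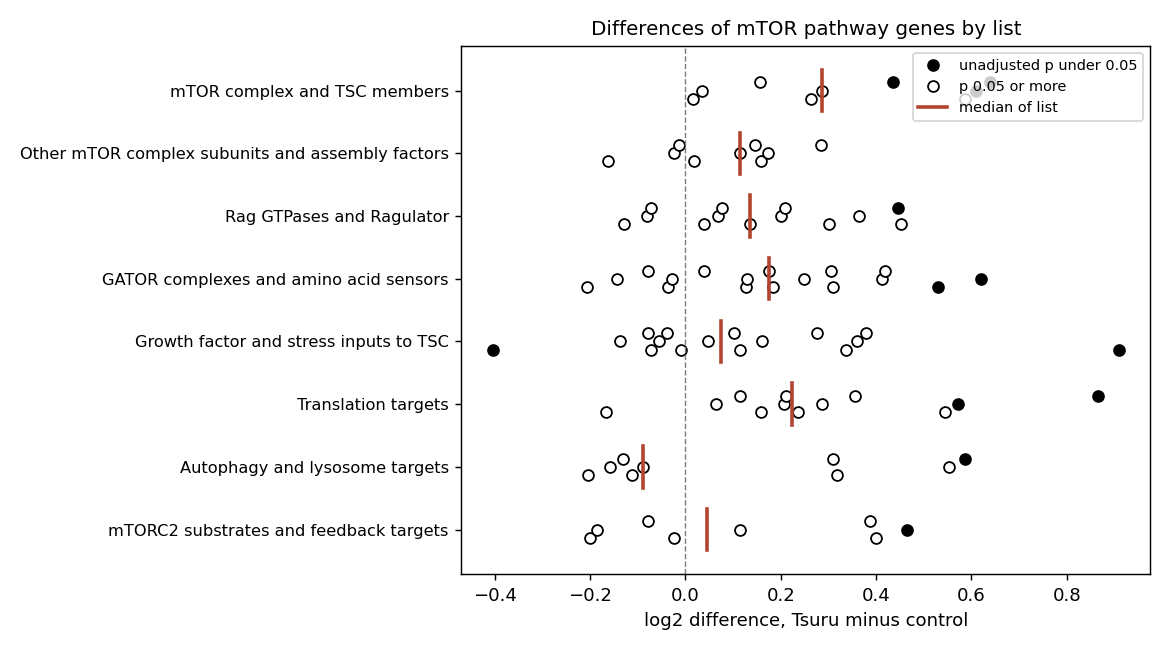
Log2 difference, Tsuru minus control, of each gene of the mTOR pathway by list, with filled circles for an unadjusted p under 0.05 and a red bar at each list's median. The 9 genes in the top row have a median of 0.29, and the other 7 lists have medians from -0.089 to 0.22.

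Of 12 adipocyte markers, 3 passed upward (Plin1 and Plin4, which coat lipid droplets, and Cfd, which encodes adipsin) and 0 downward, against the 9.92% of clusters at log2 6 or more that passed upward. Positive differences were found for 9 of the 12, against 64.5% of those clusters, with a median log2 difference of 0.24, while Pparg, Slc2a4 and Lep had values of -0.034, -0.031 and -0.26. By array, the median deviation of the 12 from their gene means was 0.27, 0.15 and -0.017 with Tsuru and 0.014, -0.10 and -0.35 in controls. For the 9 mTOR genes it was 0.082, 0.11 and 0.28 with Tsuru and -0.42, -0.18 and 0.12 in controls, so the array with the lowest adipocyte markers, control replicate 3, was the highest control for the mTOR genes. Of 7 preadipocyte markers 0 passed by limma at the methods' threshold or at an adjusted p under 0.05. Of 8 macrophage markers 2 passed downward, Mrc1 at -1.15 and Lyz2 at -1.29, and of 6 endothelial markers 1, Cdh5, at -0.59. Of 6 skeletal muscle markers 1 passed upward (Tnnt3) and 1 downward (Myog). Over all clusters 5.75% passed upward and 5.38% downward. Cdh5, Tnnt3 and Myog lay under the mean of the negative control sets on every array. Mrc1 exceeded that mean on 2 of 6 arrays and Lyz2 on 4. The macrophage list's median deviation was -0.062, -0.35 and 0.027 with Tsuru and 0.16, 0.039 and -0.088 in controls. The labels name 3T3-L1 cells only. Above the 95th percentile of the negative control sets on every array were 0 of the 8 macrophage, 0 of the 6 endothelial and 0 of the 6 muscle markers. The part of fat cell content in the differences was not tested. In whole cultures a change in the number of fat cells and a change in RNA per cell cannot be told apart.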

How the data were processed

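Total RNA from 6 samples was labelled with the WT PLUS kit from 100 ng of RNA and hybridised to Clariom S mouse arrays, per the series design text. The deposited value table holds log2 signals that the authors made with SST-RMA in Transcriptome Analysis Console 4.0.2, per the series design text. The authors' deposited table adds group averages on the log2 scale, a signed linear fold change as a score below -1 where lower, and p-values, which the design text ascribes to an ANOVA moderated by empirical Bayes. A sheet of sample descriptions was not used. No genome build for the clusters is given in the sources used here.

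Of 28846 probe sets, 6640 control sets were left out. The 22206 clusters went into one limma fit (version 3.58.1, R 4.3.3; lmFit, eBayes without a trend, no filter), Tsuru minus control, with Benjamini-Hochberg adjustment. Intervals are at 95%. The steps were tested on simulated data. Named genes are all 9 measured members and, from each of 7 lists, the 4 with the smallest p, of which 1 is not reported here. Castor1, Castor2 and Bmt2 were matched through older symbols in RefSeq's gene table of GRCm38.p6, and Pdgfra, on a row with several genes, was left out. Members and lists were chosen with earlier results of these data known. Alternatives were other normalizations, filters, variance models, array weights, a replicate block, the authors' values and leaving out each array.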

Additional observations from a re-analysis of the deposited data

How the results depend on the processing

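The count of mTOR genes past the methods' threshold, 3 upward and 0 downward, was 0 upward after quantile normalization, cyclic loess or a plain one-way ANOVA, and 1 to 4 with an array left out. Unadjusted p-values of Mtor and Deptor were 0.0546 and 0.0502 after quantile normalization, and 0.0505 and 0.0502 after cyclic loess. Those of Rheb by limma were 0.121 and 0.155 after the same 2 normalizations, at log2 differences of 0.33 and 0.31. Why the normalizations differ was not tested. Over all clusters, upward counts were 2026 with array medians subtracted and 797 to 1845 with an array left out. Downward counts were 766 with array medians subtracted, 317 with clusters under log2 6 left out (fewer clusters tested) and 842 to 1771 with an array left out. At an adjusted p under 0.05 there were 0 to 25 clusters with an array left out, the 25 without control replicate 3. Of the 84 other pathway genes, 17 passed upward with array medians subtracted, 5 in the plain ANOVA and 5 to 11 with an array left out. Downward, 0 passed after quantile normalization, cyclic loess, median subtraction or either filter on dim clusters, and 0 to 1 with an array left out.

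Tsc2 reversed to -0.076 after quantile normalization and -0.094 after cyclic loess, and ran from -0.030 to 0.076 with an array left out. Rps6kb1 reversed to -0.072 and -0.098 in the same order and to -0.033 with array weights, was -0.14 in the authors' deposited table, and ran from -0.12 to 0.091 with an array left out. Under 16 alternatives, 1 of them the authors' deposited values, 107 of 144 differences of the 9 genes kept direction and side of the threshold, 22 lost the threshold, 6 gained it and 9 reversed. Direction could not change under the dim filters, the variance trend, the plain ANOVA or the replicate block, which leave the log2 difference itself unchanged. The 22 losses all belong to Mtor, Deptor and Rheb, since no other of the 9 genes passed in the main fit. With the replicate number as a block, 3 mTOR genes passed, Rptor (unadjusted p = 0.0242) in place of Rheb (0.0505). Over all clusters that block gave 1340 upward and 1435 downward. Same-numbered arrays correlated at 0.0020, 0.0059 and 0.19 in their deviations from the group means, and not every array correlated best with its own number. The mean over several clusters of a gene was not run, since each gene had 1.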
